A study of Canis lupus familiaris with 10 samples.

Results

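The tumor necrosis factor (TNF) superfamily on the nCounter Canine IO Panel was described in canine cutaneous histiocytoma (CCH). Its members were taken by symbol, as every panel gene named TNF or whose name starts with TNFSF (ligands) or TNFRSF (receptors). This rule gave 24 of the 800 panel genes, 11 ligands and 13 receptors. The rule itself used no measured value.

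The ligands of this family are membrane proteins, some of which are also released from the cell, and they bind as trimers to receptors on neighboring cells. Most of the receptors either recruit TRAF adaptors and switch on NF-κB, which serves survival and inflammation, or carry a death domain and can start apoptosis. In skin and lymphoid tissue the family is known for T cell costimulation, B cell survival, lymphoid organisation and, through TNFSF11 (RANKL) and TNFRSF11A (RANK), for the maintenance of Langerhans cells.

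CCH is a benign skin tumor of dogs that derives from Langerhans cells and usually regresses while lymphocytes move in. Archived formalin-fixed, paraffin-embedded (FFPE) tissue of 10 tumors, each from a different dog, was measured. By their titles, 5 were in Cockerell and Slauson's group 1 (early CCH) and 5 were lymphocyte enriched tumors of group 3 (late CCH). The early group held 3 males, 1 female and 1 dog without a stated sex or age, with stated ages of 0.5 to 5 years. The late group held 4 males and 1 female aged 1.5 to 9 years. Early 1, early 4 and late 1 were labelled as neutered males. No dog or tumor had a stated treatment, and each value is a mixture of all cells in a tumor section after the adjacent tissue had been removed. In such bulk RNA fewer cells of a type and less RNA per cell cannot be told apart. The comparison asks which family members differ between a stage that is defined by lacking lymphocytes and one that is rich in them, so that lymphocyte content is part of the definition of the groups.

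All values are normalized counts, which means barcode counts per probe that the authors scaled to positive controls and housekeeping genes. Before this scaling, the counts of a sample summed to between 484696 and 823763 in early and to between 945399 and 1253083 in late CCH. The background of a sample was set as the mean plus 2 SD of its 8 negative control probes and came to 21.8 to 38.2 normalized counts in early and 19.2 to 26.9 in late CCH. Of the 24 members, 15 were above the background of every sample and 9 were at or below it in some. The ratio of the 2 strongest positive controls (2.09 to 2.17 in early and 2.72 to 2.84 in late CCH) and the 8 T cell markers, summed (454 to 8614 and 11767 to 18798 normalized counts), did not overlap between the stages. DV200, the share of RNA fragments long enough to pass a set length, was 64.5% to 71.2% in early and 71.2% to 75.8% in late CCH. Each stage was hybridised on a cartridge of its own, and every late block had been stored longer than every early one, so that cartridge, storage and stage cannot be told apart. Langerin (CD207), the defining marker of Langerhans cells, had a median of 28.4 normalized counts in early and 15.8 in late CCH and was above background in 1 of 5 tumors of each stage, whereas the dendritic cell receptor FLT3 ranged from 962 to 3117 in early and from 271 to 708 in late CCH.

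Differences are given as log2 fold changes of normalized count + 1, early minus late CCH, from limma, with p-values adjusted over all 761 genes tested. Genes were called at 2 levels. The stricter one asks for a 2-fold change and a p of at most 0.05 after the Benjamini-Yekutieli (BY) adjustment, and the wider one for a p of at most 0.05 after that of Benjamini and Hochberg (BH).

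Of the 24 members, 1 passed the stricter level, TNFSF11, which was higher in early CCH. Across all genes tested, 1.97% passed that level with higher values in early CCH and 9.2% with higher values in late CCH. At the wider level 7 members passed. TNFSF11 and TNFRSF11A were higher in early CCH, and TNFRSF4, TNFRSF18, TNFRSF9, TNFRSF13B and TNFRSF14 were higher in late CCH. These were 29.2% of the members, beside 35.7% of all genes (8.41% toward early and 27.3% toward late CCH), so that the share of members past BH was no higher than that of the panel. The split of these calls moved with the scaling. Of the members, 2 were past BH toward early and 5 toward late CCH on the authors' scale, 4 and 2 with geometric mean scaling, 4 and 3 with TMM and 4 and 4 with quantile normalization, while all genes went from 64 and 208 to 193 and 152, 148 and 175, and 180 and 144. By role, 1 of 11 ligands and 6 of 13 receptors passed. The median log2 fold change was -0.17 for the ligands and -0.35 for the receptors, beside -0.18 for all genes. Both medians changed sign when each sample was scaled to the geometric mean of its genes (0.22 and 0.041, beside 0.21 for all genes), so that the direction of a list as a whole depends on the scaling.

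**Figure D1:**
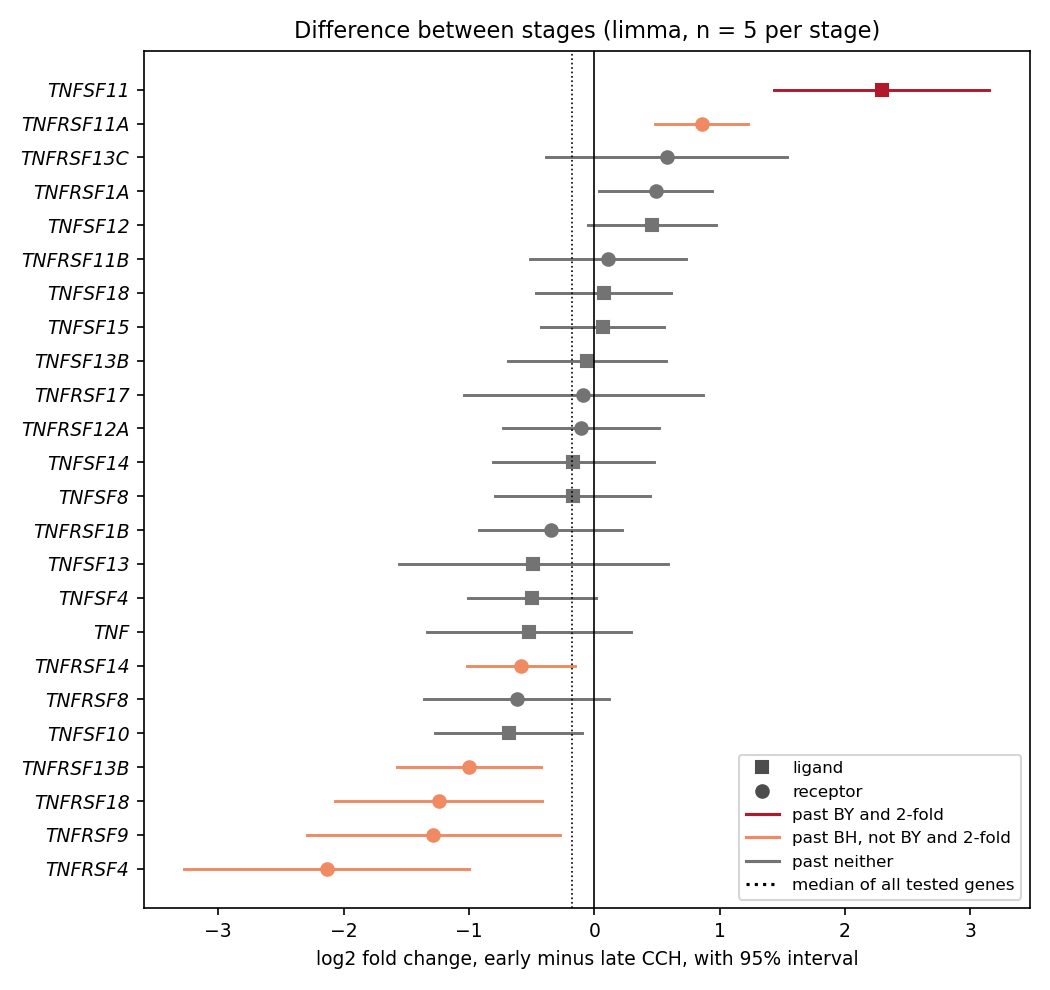
Log2 fold change of each of the 24 members (early minus late CCH, limma, 5 tumors per stage) with its 95% interval; squares are ligands, circles are receptors, and the dotted line is the median of all 761 genes tested (-0.18). TNFSF11 (2.29) stands at one end and TNFRSF4 (-2.13) at the other, and the ligands other than TNFSF11 lie between -0.68 and 0.46.

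TNFSF11 and TNFRSF11A were the ligand and the receptor with the highest fold change toward early CCH, and they bind each other. TNFSF11 (RANKL) drives osteoclast formation in bone and is made in skin by keratinocytes and by some lymphocytes. Its normalized counts in early CCH 1 to 5 were 122, 169.6, 105, 82.4 and 362. In late CCH 1 to 5 they were 26.1, 43.1, 32.4, 27.9 and 19.4. Every early tumor was above every late tumor, and early 5 was the highest. The late values were above the background of their own samples but close to it. The means were 168 ± 113 (SD, n = 5) and 29.8 ± 8.80 (SD, n = 5), a ratio of 5.64, and the log2 fold change was 2.29 (SE 0.39, 95% interval 1.44 to 3.15, limma BY-adjusted p = 0.0168, BH-adjusted p = 0.00233). With all values raised to a common floor of 38.2, the highest background of any sample, it was 1.87 (limma BH-adjusted p = 0.00461). The floor set most late values equal, which removes their spread, so that this p is no separate check. Without early 5 the log2 fold change was 1.97 (limma BH-adjusted p = 0.00381). The BY-adjusted p rose to 0.0590 without late 1 and to 0.0554 without late 4.

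TNFRSF11A (RANK) is the signalling receptor of TNFSF11 and is found on osteoclast precursors, dendritic cells and Langerhans cells. It reached 570.2, 500.4, 404, 344 and 495 normalized counts in early CCH 1 to 5. The late tumors lay close together, at 254, 227, 267, 259 and 252. Again no early tumor overlapped with a late one. The means were 463 ± 88.7 (SD, n = 5) and 252 ± 15.1 (SD, n = 5), a ratio of 1.84, and the log2 fold change was 0.86 (SE 0.17, 95% interval 0.48 to 1.23, limma BY-adjusted p = 0.0304, BH-adjusted p = 0.00422). It was past BH in all 10 fits that left out a sample, with BY-adjusted p-values of 0.0316 to 0.0998. The change was under the 2-fold limit on the authors' scale, and over it when samples were scaled to the geometric mean of their genes (1.24), by TMM (1.08) or by quantiles (1.38).

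TNFRSF11B (osteoprotegerin), a secreted decoy receptor of TNFSF11, did not pass. Its values were 32.8, 27.1, 53.2, 54.4 and 58.7 in early and 44.6, 43.1, 57.2, 27.9 and 33.5 in late CCH, and the stages overlapped throughout. In limma this was a log2 fold change of 0.11, with a 95% interval from -0.51 to 0.73 (limma BH-adjusted p = 0.793). A 2-fold change in either direction was outside this interval on the authors' scale, but the values lay near background, and with geometric mean scaling the log2 fold change was 0.49.

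**Figure D2:**
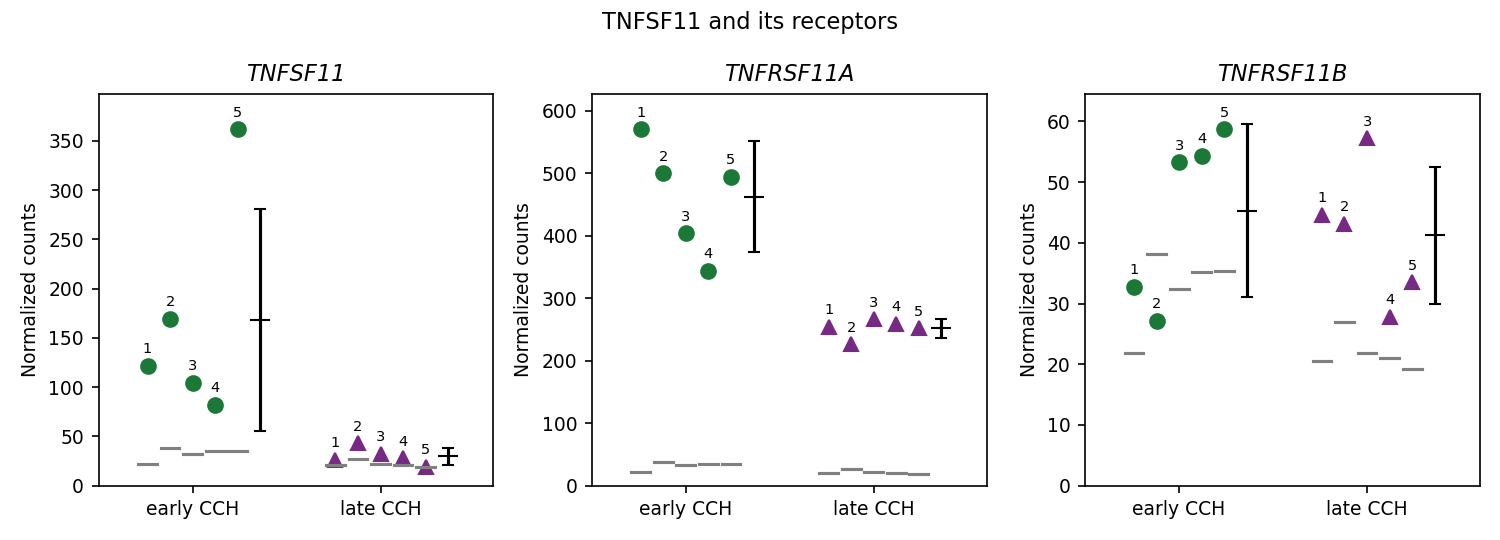
Normalized counts of TNFSF11, TNFRSF11A and TNFRSF11B in each tumor (circles early, triangles late CCH, numbered 1 to 5), with the mean and SD of each stage in black and the background of each sample as a gray dash. The stages are apart for TNFSF11 and TNFRSF11A and overlap for TNFRSF11B, and the late TNFSF11 values sit near the background dashes.

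The 8 Langerhans and dendritic cell markers summed to 5791 to 10869 normalized counts in early and to 3420 to 4466 in late CCH, and at the wider level 3 of 8 genes were higher in early (CD86, FLT3 and FCER1A) and 1 of 8 in late CCH (XCR1). Most of the sum came from CD86, at 3962 to 5942 in early and 1806 to 2635 in late CCH, and from FLT3, whereas CD207, CD1A6, CD1D and ITGAX did not pass on the authors' scale. CD207 was past BH toward early CCH with geometric mean scaling (1.13, limma BH-adjusted p = 0.00824) and TMM (0.98, limma BH-adjusted p = 0.0177). The 4 keratinocyte markers overlapped between the stages, with sums of 959 to 9721 in early and 1003 to 4977 in late CCH, and on the authors' scale 0 of 4 passed BH in limma or had an unadjusted p under 0.05. TP63, one of them, was past BH toward early CCH with geometric mean scaling (0.95, limma BH-adjusted p = 0.0378) and quantile normalization (1.15, limma BH-adjusted p = 0.0137). The tumor with the most TNFSF11, early 5, had the lowest keratinocyte sum of all. No listed marker was at 0 in any sample. The part of cell content in the TNFSF11 and TNFRSF11A differences was not tested.

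The costimulatory receptors of activated T cells TNFRSF4, TNFRSF18 and TNFRSF9 were higher in late CCH at the wider level, which 27.3% of all genes passed in that direction, and TNFRSF8 did not pass on the authors' scale. TNFRSF4 (OX40) appears on activated T cells and prolongs their survival. Its normalized counts were 16.9, 74.6, 117, 137 and 55.0 in early CCH 1 to 5. In late CCH 1 to 5 they were 242, 373, 231, 439 and 217. The stages did not overlap, and early 1 was below its own background. The means were 80.1 ± 48.1 (SD, n = 5) and 300.4 ± 99.6 (SD, n = 5), 3.75 times as much in late CCH, with a log2 fold change of -2.13 (SE 0.51, 95% interval -3.27 to -0.998, limma BH-adjusted p = 0.0107, BY-adjusted p = 0.0768). It was past BH in all 10 fits that left out a sample, where the log2 fold change lay between -2.40 and -1.67.

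TNFRSF18 (GITR) is carried by regulatory and activated T cells. It reached 58.2, 134, 218, 161 and 77.7 in early CCH 1 to 5. The late values were 335, 329.6, 169, 349 and 249.5. Late 3 was below early 3, so that the stages overlapped. On the log2 scale the difference was -1.24 (SE 0.37, 95% interval -2.07 to -0.41, limma BH-adjusted p = 0.0265), with 2.20 times as much in late CCH by the means. Leaving out early 5, late 1, late 2 or late 4 raised the limma BH-adjusted p to between 0.0560 and 0.0648. Without each of the other samples in turn it was at most 0.0478. With quantile normalization the fold change was -0.61 (limma BH-adjusted p = 0.112).

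TNFRSF9 (4-1BB, CD137) is a costimulatory receptor of activated T cells and natural killer cells. Its early values fell into low ones in early 1 (16.9), early 2 (30.5) and early 5 (41.7) and high ones in early 3 (95.5) and early 4 (93.9). The late values were 88.1, 86.3, 140.3, 124 and 137. Early 3 and early 4 thus lay within the late range, and early 1 and early 2 were below their own background. The log2 fold change was -1.28 (SE 0.45, 95% interval -2.29 to -0.28) and narrowly passed (limma BH-adjusted p = 0.0493). It passed BH without early 3 (0.0244) or early 4 (0.0249) and in no other fit that left out a sample, where the limma BH-adjusted p was between 0.0622 and 0.101. It did not pass under any of the 3 other scalings.

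TNFRSF8 (CD30), a receptor of activated lymphocytes, was not above background in any early tumor. Its values there were 14.8, 22.1, 25.7, 28.0 and 24.6. In late CCH it was low in late 1 (23.6), late 3 (27.0) and late 4 (23.2) and higher in late 2 (65.2) and late 5 (55.1). In limma this was a log2 fold change of -0.62 with a 95% interval from -1.35 to 0.12 (limma BH-adjusted p = 0.17). With quantile normalization it narrowly passed (-0.67, limma BH-adjusted p = 0.0488).

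The ligands of these receptors did not pass on the authors' scale. TNFSF4 (OX40L) was at 14.8, 25.4, 25.7, 33.0 and 34.1 in early CCH, below background in all 5 tumors. In late CCH it was at 33.5, 43.1, 36.7, 32.5 and 37.8, above background in all 5, where the background itself was lower. On the log2 scale the difference was -0.50 (95% interval -1.01 to 0.01, limma BH-adjusted p = 0.119), and with the common floor it was -0.03. With quantile normalization it was -0.52 and past BH (limma BH-adjusted p = 0.0301). TNFSF18 (GITRL) ranged from 47.4 to 93.9 in early and from 45.3 to 82.9 in late CCH (log2 fold change 0.08, 95% interval -0.46 to 0.61). TNFSF8 (CD30L) ranged from 92.8 to 176 and from 95.05 to 219.5 (log2 fold change -0.17, 95% interval -0.79 to 0.45). For TNFSF18 and TNFSF8 these intervals, on the authors' scale, leave out a 2-fold change in either direction, whereas with geometric mean scaling the log2 fold changes were 0.46 and 0.22.

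**Figure D3:**
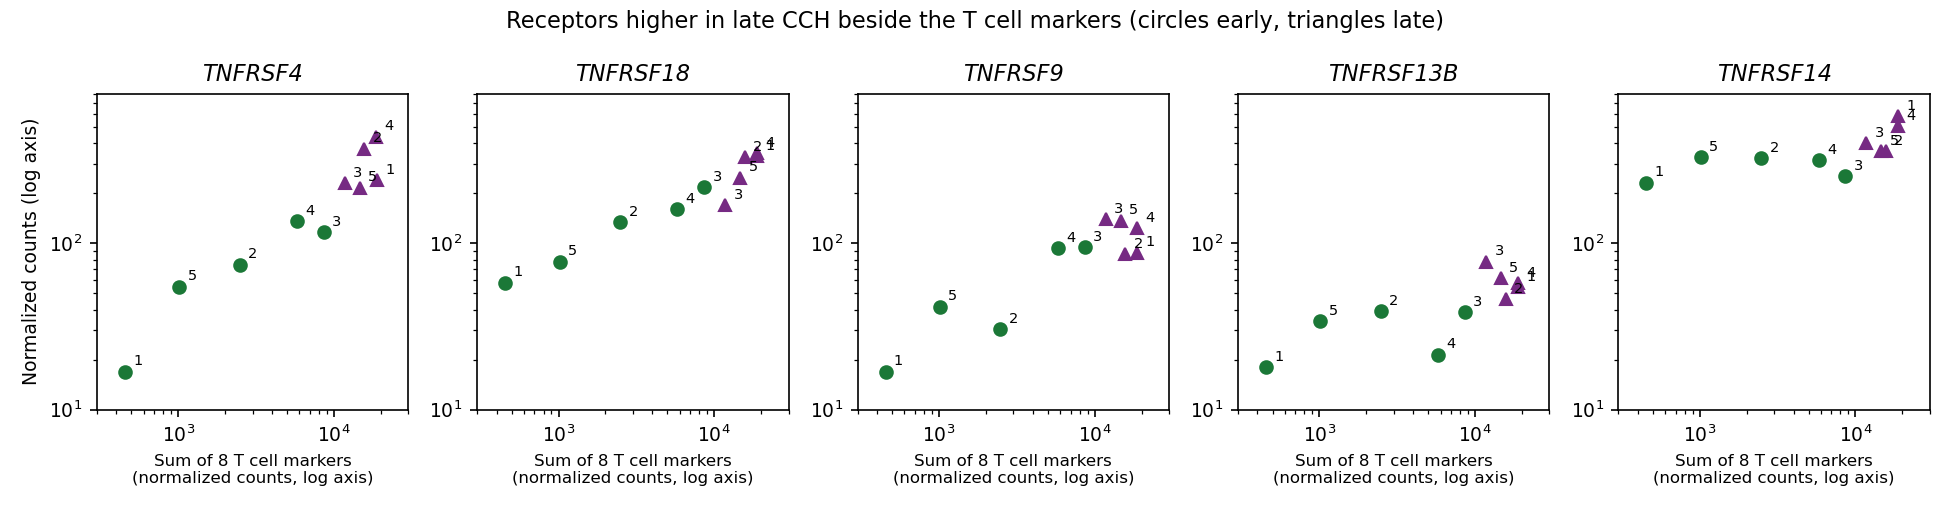
Normalized counts of the 5 receptors that were past BH toward late CCH (log y axis, same range in each panel) against the sum of the 8 T cell markers (log x axis) in each tumor, numbered within its stage. All 5 late tumors lie to the right of all 5 early ones, and early 1, the tumor with the lowest marker sum, is the lowest early tumor in each panel. Early 1 was the lowest of its stage for 13 of all 24 members, ligands among them.

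T cell markers, like these receptors, differed between the stages. All 8 T cell markers were higher in late CCH at the wider level, with a median log2 fold change of -2.97. In early CCH 1 to 5 they summed to 454, 2483, 8614, 5798 and 1016 normalized counts, and in late CCH 1 to 5 to 18798, 15684, 11767, 18731 and 14693. The 6 cytotoxic lymphocyte markers summed to 670 to 6271 in early and to 7836 to 22636 in late CCH. The part of T cell content in the receptor differences was not tested.

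TNFRSF14 (HVEM), which is widespread on lymphocytes and epithelia and binds TNFSF14, was at 233, 326, 253, 316 and 332 in early CCH. It was at 584, 358, 402, 507 and 359 in late CCH. The stages did not overlap, but early 5 and late 2 were close to each other. The log2 fold change was -0.58 (SE 0.20, 95% interval -1.02 to -0.15, limma BH-adjusted p = 0.0394). It passed without early 2, late 2 or late 5 (limma BH-adjusted p of at most 0.0438), and in the other 7 such fits the p was between 0.0521 and 0.0966. With quantile normalization the fold change was 0.0053, with geometric mean scaling -0.19 and with TMM -0.35, and none of these passed. TNFSF14 (LIGHT), its ligand, ranged from 30.7 to 74.1 in early and from 30.2 to 63.7 in late CCH (log2 fold change -0.17, 95% interval -0.81 to 0.47, limma BH-adjusted p = 0.680).

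TNFRSF13B (TACI) is found on B cells and plasma cells and binds both TNFSF13 and TNFSF13B. It was at 18.0, 39.0, 38.5, 21.4 and 34.1 in early CCH, above background in 2 of 5 tumors. In late CCH it was at 54.6, 46.5, 77.7, 57.6 and 61.6, above background in all 5. The stages did not overlap, and the means were 30.2 ± 9.86 (SD, n = 5) and 59.6 ± 11.6 (SD, n = 5). In limma this was a log2 fold change of -1.002 (SE 0.26, 95% interval -1.58 to -0.43, limma BH-adjusted p = 0.0141, BY-adjusted p = 0.102). With the common floor it was -0.60 (limma BH-adjusted p = 0.00475). The floor made the early values nearly equal, which removes their spread, so that this p is no separate check. TNFRSF13B was past BH in all 10 fits that left out a sample and just missed it with geometric mean scaling (-0.62, limma BH-adjusted p = 0.0507).

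TNFRSF17 (BCMA), the receptor of plasma cells, varied widely within a stage. Its values were 27.5, 37.3, 110.2, 56.0 and 109.9 in early and 76.9, 64.1, 97.2, 55.7 and 35.6 in late CCH. On the log2 scale the difference was -0.09 with a 95% interval from -1.04 to 0.87, which holds a 2-fold change toward late CCH. The 4 plasma cell markers, in contrast, did not overlap between the stages, with sums of 206 to 1696 in early and 2956 to 11276 in late CCH.

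TNFRSF13C (BAFF receptor) is the main survival receptor of mature B cells. Its values were 1713, 1023, 1050.1, 1148 and 921 in early CCH. In late CCH they were 532, 416, 2497, 827 and 576. Late 3 was the highest of all 10 tumors, and the other 4 late tumors were below every early one. The log2 fold change was 0.58 (95% interval -0.39 to 1.54, limma BH-adjusted p = 0.322). Without late 3 it was 1.00 and past BH (limma BH-adjusted p = 0.0137). The 7 B cell markers summed to 7531 in late 3 and to between 1466 and 3185 in the other late tumors. In early CCH they summed to 1362 to 2092, of which CD22 alone made up 1199 to 1703, with a log2 fold change of 0.17 that did not pass. The wider level was passed by 5 of the 7 markers, all toward late CCH (median of the 7, -1.87), and MS4A1 (CD20), a defining marker of B cells, was above background in 1 of 5 early tumors. The part of B cell content in the TNFRSF13C values was not tested.

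The ligands of these receptors overlapped between the stages. TNFSF13 (APRIL) was at 80.4, 400.3, 125, 84.0 and 237 in early and at 347, 213, 106, 202 and 277 in late CCH, with a log2 fold change of -0.49 (95% interval -1.56 to 0.59). TNFSF13B (BAFF) ranged from 433 to 1142 in early and from 554 to 882 in late CCH, with a log2 fold change of -0.06 (95% interval -0.69 to 0.57, limma BH-adjusted p = 0.890). For TNFSF13 a 2-fold change toward late CCH was inside the interval, whereas for TNFSF13B it was outside in both directions on the authors' scale (log2 fold change 0.33 with geometric mean scaling).

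TNF itself, the founding cytokine of the family and a product of activated macrophages and T cells, was at 110.0, 253, 296, 474 and 171 in early CCH. In late CCH it was at 420.4, 263, 332, 252 and 442. Early 4 had the highest value of all, early 1 the lowest. The means were 261 ± 139 (SD, n = 5) and 342 ± 87.4 (SD, n = 5), and the log2 fold change was -0.52 (SE 0.37, 95% interval -1.34 to 0.29, limma BH-adjusted p = 0.293). A 2-fold higher level in late CCH was inside this interval.

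The receptors of TNF did not pass on the authors' scale either. TNFRSF1A, the widely expressed death domain receptor, was at 1703, 2308, 1239, 1382 and 2134 in early CCH. It was at 1423, 1390.1, 1209, 1152 and 956 in late CCH. In limma this was a log2 fold change of 0.49 (95% interval 0.04 to 0.94, limma BH-adjusted p = 0.0846). It passed BH under geometric mean scaling (0.88), TMM (0.72) and quantile normalization (0.86), and without early 3 (0.60, limma BH-adjusted p = 0.0416). TNFRSF1B, the receptor without a death domain that leukocytes carry, ranged from 909 to 1902 in early and from 1144 to 2409 in late CCH, with a log2 fold change of -0.35 (95% interval -0.92 to 0.22, limma BH-adjusted p = 0.308).

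TNFSF10 (TRAIL), which can start apoptosis through death receptors, was at 1109.8, 1951, 3262, 2680.2 and 2439 in early CCH. In late CCH 1 to 4 it stayed within 3586 to 3729.5, and late 5 was at 2741. Late 5 thus lay inside the early range. On the log2 scale the difference was -0.68 (SE 0.26, 95% interval -1.27 to -0.10, limma BH-adjusted p = 0.0674), and without early 3 it was -0.83 and past BH (limma BH-adjusted p = 0.0333).

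TNFSF12 (TWEAK), a ligand linked to tissue repair, was at 289.9, 633, 329, 341 and 531 in early CCH and within 271 to 319 in late CCH. The highest early values were in early 2 and early 5, and early 1 lay within the late range. The log2 fold change was 0.46 (95% interval -0.05 to 0.97, limma BH-adjusted p = 0.145), and it passed BH under geometric mean scaling (0.85), TMM (0.69) and quantile normalization (1.01). TNFRSF12A (Fn14), its receptor, ranged from 66.1 to 157 in early and from 74.5 to 145 in late CCH, with a log2 fold change of -0.10 (95% interval -0.73 to 0.52). TNFSF15 (TL1A), an endothelial and myeloid ligand, was at 17.0 to 36.0 in early and 21.6 to 30.6 in late CCH and was above background in 3 of 5 and 4 of 5 tumors, so that its values lay near the limit of this depth (log2 fold change 0.07, 95% interval -0.42 to 0.56).

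**Figure D4:**
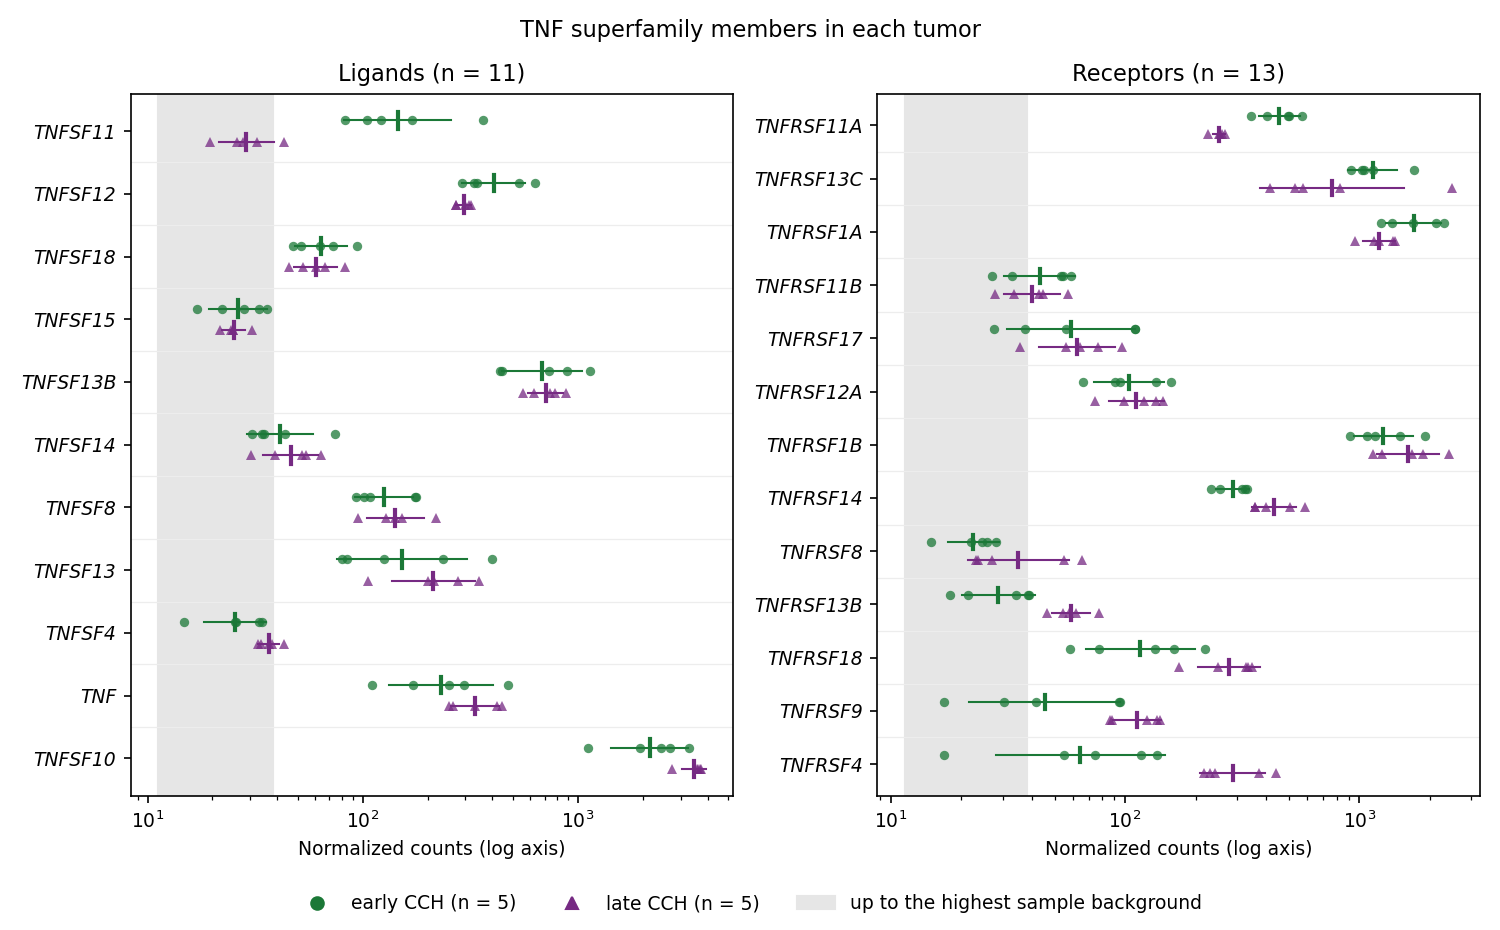
Normalized counts of the 11 ligands (left) and 13 receptors (right) in each tumor on a log axis (circles early, triangles late CCH), with the mean and SD of the log2 values of each stage as a tick and a line; the gray band reaches up to the highest background of any sample (38.2). Members are ordered by log2 fold change, and 5 of 24 show no overlap between the stages, TNFSF11 and TNFRSF11A toward early and TNFRSF4, TNFRSF13B and TNFRSF14 toward late CCH.

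The stages did not overlap for these 5 of 24 members, which is 20.8% beside 24.6% of all genes tested (5.39% toward early and 19.2% toward late CCH). The spread within a stage was much the same for both roles. The median SD of log2 values was 0.50 for ligands and 0.49 for receptors in early CCH, beside 0.45 for all genes, and 0.33 and 0.39 in late CCH, beside 0.38. Counting error alone, computed from the counts before scaling, had a median SD of 0.14 for ligands and 0.13 for receptors on the log2 scale. It covers counting only, and in low members its median over all tumors could exceed the spread within a stage, as for TNFSF4 (0.30 against an SD of 0.16 in late CCH) and TNFSF15 (0.32 against 0.18).

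Ligands and receptors that bind each other were set side by side for the 14 pairs of which both genes were measured. In 1 pair both genes passed BH, TNFSF11 with TNFRSF11A, and both were higher in early CCH. In 5 pairs the receptor alone passed, each time toward late CCH, namely TNFSF4 with TNFRSF4, TNFSF18 with TNFRSF18, TNFSF14 with TNFRSF14, and TNFRSF13B with both TNFSF13 and TNFSF13B. In 1 pair, TNFSF11 with TNFRSF11B, the ligand alone passed, and in 7 pairs neither gene did. These calls are on the authors' scale, and some genes, such as TNFRSF13B, stand in more than 1 pair. Among all genes tested, 8.41% were past BH toward early and 27.3% toward late CCH. Of the receptors that passed alone, only TNFRSF4 was past BH under all 3 other scalings. TNFSF9, TNFRSF10B and TNFRSF25, the partners of TNFRSF9, TNFSF10 and TNFSF15, were not analysed here.

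**Figure D5:**
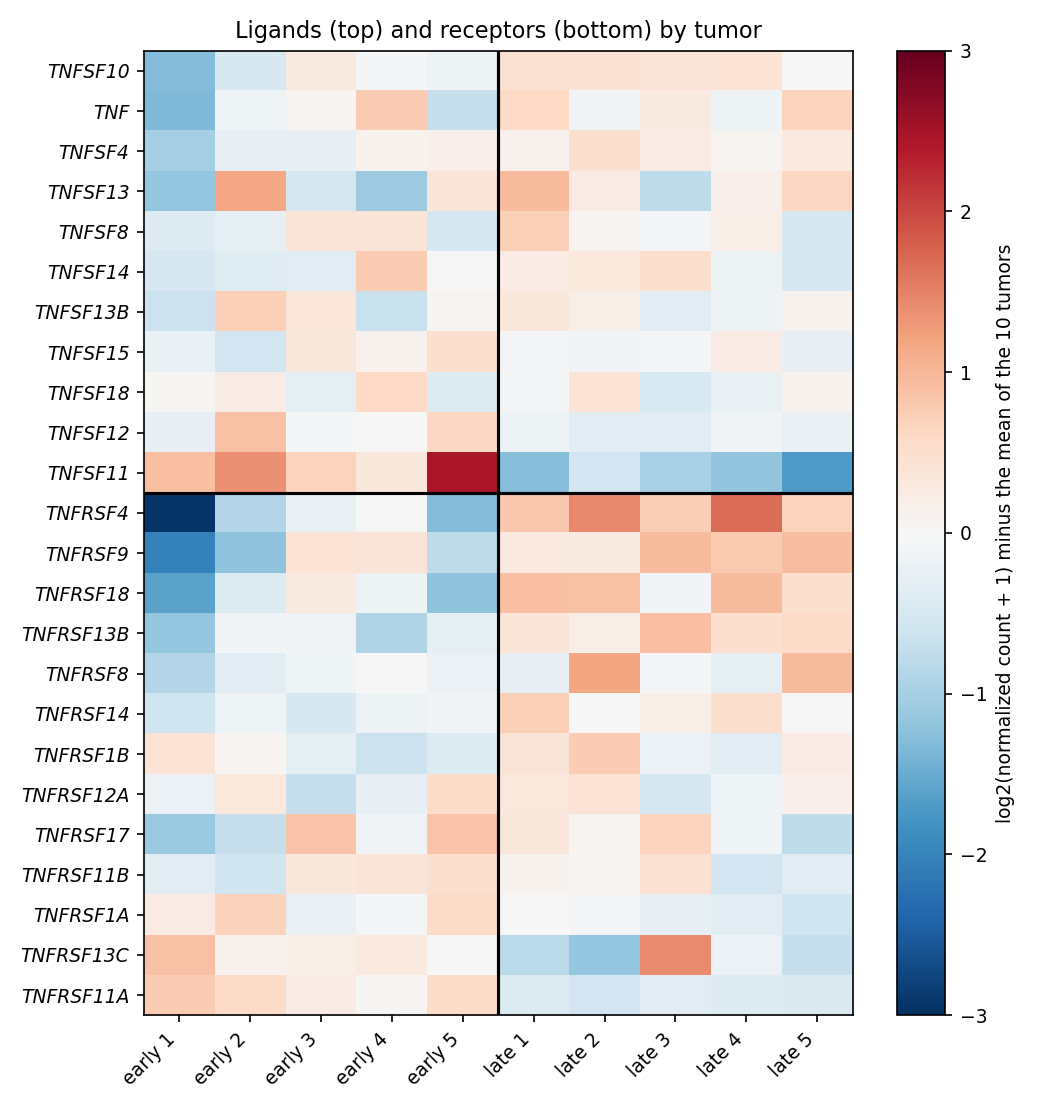
Log2(normalized count + 1) of each member in each tumor minus its mean over the 10 tumors, with ligands above the black line and receptors below it, each ordered by log2 fold change. Early 1 is blue in most rows, TNFSF11 and TNFRSF11A change from red to blue between the stages, and TNFRSF4 and TNFRSF13B change from blue to red, while for TNFRSF18 and TNFRSF9 some early tumors are red as well.

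Early 1 was the lowest tumor of its stage for 13 of 24 members, 6 ligands and 7 receptors, and also had the lowest T cell marker sum. It was the highest of its stage for 3 members, TNFRSF11A, TNFRSF13C and TNFRSF1B. Late 5 was the lowest of its stage for 8 members, and late 1 for 0.

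A list of further family genes that carry other symbols held 12 genes, of which 9 were measured. On the authors' scale 4 of these passed BH, all of them toward late CCH, which is 44.4% beside 27.3% of all genes. The list was chosen with earlier results of these data known, so that these shares are no test of the list. The median log2 fold change of the 9 was -0.83. CD27, a costimulatory receptor of T cells and memory B cells, was at 15.9, 50.9, 134, 109 and 39.8 in early CCH. It was at 419, 353, 202, 334 and 331 in late CCH, which gave -2.53 on the log2 scale (SE 0.52, limma BY-adjusted p = 0.0353), and it passed the stricter level in 4 of the 10 fits that left out a sample (BY-adjusted p of 0.0210 to 0.110). FASLG, the death ligand of cytotoxic lymphocytes, ranged from 33.9 to 312 and from 379 to 860.4 (log2 fold change -2.24, limma BH-adjusted p = 0.00831). LTB, a lymphotoxin subunit that shapes lymphoid tissue, ranged from 14.8 to 53.2 and from 68.0 to 149 (log2 fold change -1.62, limma BH-adjusted p = 0.00879). FAS, the receptor of FASLG, ranged from 351 to 559 and from 728 to 969 (log2 fold change -0.83, limma BY-adjusted p = 0.0304). These 4 genes showed no overlap between the stages, as did 19.2% of all genes in that direction, and passed BH in all 10 fits that left out a sample, whereas LTA, LTBR, CD40LG, CD70 and CD40 did not pass. LTBR, the lymphotoxin receptor, was past BH toward early CCH under each of the 3 other scalings (0.73, 0.57 and 0.98, beside 0.34 on the authors' scale). LTA was past BH toward late CCH with quantile normalization (-1.45, limma BH-adjusted p = 0.0356). It also passed with the common floor (-0.44), which set most of its early values equal and so removed their spread.

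Downstream of the receptors, 21 of 29 listed signalling genes were measured. On the authors' scale 9 of these passed BH and all were higher in late CCH, which is 42.9% beside 27.3% of all genes. This list too was chosen with earlier results known, so that these shares are no test of it. With the other scalings the calls went both ways, 3 toward early and 6 toward late CCH with geometric mean scaling, 2 and 8 with TMM and 5 and 4 with quantile normalization. The 21 genes had a median log2 fold change of -0.42. NFKBIA, the inhibitor that holds NF-κB in the cytoplasm and is itself an NF-κB target, ranged from 1025 to 1801 in early and from 2954 to 4092 in late CCH (log2 fold change -1.30, limma BY-adjusted p = 0.0102). NFKB2, the precursor of the alternative pathway, ranged from 444 to 850.0 and from 1309.7 to 1489.6 (-1.13, limma BY-adjusted p = 0.0120). TNFAIP3 (A20), a feedback inhibitor, ranged from 1088 to 1749 and from 2218 to 3748 (-1.03, limma BY-adjusted p = 0.0238). These 3 genes passed the stricter level, NFKBIA and NFKB2 also in all 10 fits that left out a sample and TNFAIP3 in 5 of them (limma BY-adjusted p of 0.0236 to 0.0753). With other scalings they were past BH but mostly under the 2-fold limit. With geometric mean scaling, TMM and quantile normalization in turn, the log2 fold change was -0.91, -1.07 and -0.95 for NFKBIA, -0.74, -0.90 and -0.75 for NFKB2 and -0.64, -0.80 and -0.61 for TNFAIP3.

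The others passed BH only. Among them RELB, the partner of NFKB2, had a log2 fold change of -1.09 and RELA of -0.47. The TRAF adaptors TRAF1 and TRAF3 were at -0.76 and -1.61, and the caspase CASP10 at -0.84. RELA was not past BH under any of the 3 other scalings (-0.08, -0.24 and -0.14), TRAF1 and CASP10 not with geometric mean scaling or quantiles, and RELB not with quantiles (-0.44, limma BH-adjusted p = 0.187). NFKB1 (-0.05), REL (-0.25), TRAF2 (-0.66), TRAF6 (-0.02), CASP8 (-0.42), the kinases CHUK, IKBKB and MAP3K7 and the regulatory subunit IKBKG (0.13 to 0.25 for these 4) were among the 12 that did not pass on the authors' scale. With other scalings some of them passed BH toward early CCH, CHUK (0.64, 0.48 and 0.89) and MAP3K7 (0.62, 0.46 and 0.79) with geometric mean scaling, TMM and quantiles, IKBKB with geometric mean scaling (0.56) and quantiles (0.58), and IKBKG (0.73) and TRAF6 (0.60) with quantiles. The median of this list was 0.12 under quantile normalization, so that its direction as a whole depends on the scaling as well.

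With DV200 as a covariate, 0 of 24 members were past BH in limma and 4 had an unadjusted p under 0.05, TNFSF11, TNFRSF11A, TNFRSF13B and TNFRSF14. All 7 members that passed in the comparison kept their direction. TNFSF11 was then at 1.75 (limma BH-adjusted p = 0.104), TNFRSF11A at 0.71 (0.136) and TNFRSF4 at -1.81 (0.194). Without late 5, whose DV200 value differs between sources, TNFSF11 was at 1.30 (limma BH-adjusted p = 0.267). TNFRSF11A was then at 0.67 (0.280) and TNFRSF4 at -1.97 (0.292). Across the panel 45 genes passed BH in the DV200 fit with all samples in place of 272. DV200 was 64.5% to 71.2% in early and 71.2% to 75.8% in late CCH. RNA quality and stage therefore cannot be told apart in this fit. RNA extraction batches held 1 stage each, and with the batch as a random block all 7 members were past BH. The consensus correlation within batches was -0.14 in that fit, a negative value that narrows the errors of a stage difference, so that this fit is no stricter check. In male dogs only, neutered or not (3 early and 4 late), 2 of the 7 members were past BH. These were TNFSF11 (2.16, limma BH-adjusted p = 0.0193) and TNFRSF13B (-1.30, limma BH-adjusted p = 0.0329).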

How the data were processed

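Total RNA of 10 FFPE tumors was measured with the nCounter Canine IO Panel, whose barcoded probes, designed on CanFam3.1, are counted without amplification. The authors normalized the counts in nSolver 4.0 to positive controls and then to housekeeping genes, and the deposited values are this signal on a linear scale (800 genes, 14 control probes). No background subtraction was stated. Gene values of a sample are whole multiples of 1 step (tolerance 0.0051) for at least 99.4% of genes. Dividing by the step gave counts for depth, counting error and background alone. No count model was fitted, since the control probes in these columns were left unscaled.

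Genes with a mean of at least 20 (761 genes, all 24 members) were tested on log2(value + 1) with limma 3.58.1 in R 4.3.3 (lmFit, eBayes with an intensity trend), late CCH as baseline, no covariates. The added 1 shrinks changes of low genes. A very low value can also widen one, as for LTA, which was at 1.06 normalized counts in early 1. Its log2 fold change was -1.68, and -0.44 with the common floor. The stricter level and the baseline follow the study, whose own test of differential expression was not used. The wider BH level without a fold limit is not the study's. The script was tested on simulated data.

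Every member is named, with full statistics for TNF and for members past the thresholds (at most 3 of each role and direction); further statistics were added after the values were seen. Members, pairs and lists were chosen with earlier results of these data known. All 24 symbols matched a RefSeq gene. Its assembly is not that of the panel, and coordinates were left out. Alternatives covered the pseudocount, filter, scaling, variance model, DV200, sex, extraction batch, a background floor, the replicate number and leaving out each sample. A filter on each sample's own background and the DV200 fit without late 5 were added after the data were seen. Labels and RNA quality sheet give late 5 different DV200 values, and the label was used. Some listed genes are not reported here by name.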

Additional observations from a re-analysis of the deposited data

Results flagged for a closer look

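For 37 genes (the members and the genes past BH of the other lists) each stage was checked for a tumor that stood apart, meaning that its gap to the nearest tumor was over 0.71 of the range of its stage. Of 74 such groups 4, or 5.41%, held one, where chance gives about 5%.

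TNFRSF13C stood apart in both stages. Early 1, rounded to 1710 normalized counts, was above the other early tumors (921 to 1148), and late 3, rounded to 2500, was above the other late tumors (416 to 827). TNFSF10 in late 5 (2740) was below the other late tumors, which lay between 3586 and 3729.5. TRAF3 in early 1 was at 68.8 normalized counts and in the other early tumors at 325 to 414. Without early 1 TRAF3 remained past BH. It was past BH in 9 of the 10 fits that left out a sample, with a highest limma BH-adjusted p of 0.0574.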

How the results depend on the processing

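The count of 1 member past BY and 2-fold was 2 with geometric mean scaling, TMM, array weights or the common floor, 3 with quantile normalization or the extraction batch as a random block, 5 with BH in place of BY, and 0 with DV200 as a covariate (with or without late 5) and in male dogs. It was 0 to 1 when a sample was left out (0 without late 1 and without late 4). Ligands past BH, 1 in the comparison, were 2 with geometric mean scaling, TMM or the batch block, 3 with quantile normalization and 1 to 2 without a sample. Receptors past BH, 6 in the comparison, were 1 in male dogs and 3 to 6 without a sample (3 without early 5, late 1 or late 4). Signalling genes past BH, 9 in the comparison, were 4 in male dogs. With DV200 as a covariate, ligands, receptors and the family genes under other symbols past BH were 0 (unadjusted p under 0.05 in 1, 3 and 4), also without late 5 (0, 1 and 3), and signalling genes 1 and 0 (unadjusted 4 and 3). The all-gene median of -0.18 was 0.21 with geometric mean scaling, 0.051 with TMM and 0.21 with quantile normalization. Causes were not tested, except that leaving out samples and dogs lowers their number.

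The replicate numbers name different dogs and did not pair the samples. The correlations of same-numbered samples were -0.20, 0.16, 0.072, 0.056 and -0.068, and only number 2 matched its own number best. With the replicate block 5 of the 7 members were past BH (TNFRSF14 and TNFRSF18 were not), and 0 passed BY and 2-fold.

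The 7 members past BH kept their sign under every alternative that tested them, except TNFRSF14 with quantile normalization (0.0053). Reversals were otherwise in members that had not passed. With geometric mean scaling these were TNFRSF12A (0.28), TNFRSF17 (0.30), TNFRSF1B (0.041), TNFSF13B (0.33), TNFSF14 (0.21) and TNFSF8 (0.22). With TMM they were TNFRSF12A (0.12), TNFRSF17 (0.14), TNFSF13B (0.17), TNFSF14 (0.058) and TNFSF8 (0.056). With quantile normalization they were TNF (0.13), TNFRSF12A (0.48), TNFRSF17 (0.37), TNFRSF1B (0.027), TNFSF13 (0.17), TNFSF13B (0.38), TNFSF14 (0.055), TNFSF15 (-0.058) and TNFSF8 (0.47). With array weights they were TNFRSF17 (0.21) and TNFSF18 (-0.023). With DV200 they were TNFRSF17 (0.14), TNFSF14 (0.15), TNFSF15 (-0.049) and TNFSF8 (0.24), and without late 5 TNF (0.070), TNFSF12 (-0.044), TNFSF15 (-0.20) and TNFSF8 (0.0055). In male dogs they were TNFRSF11B (-0.11), TNFRSF12A (0.0066) and TNFSF15 (-0.20). Leaving out a sample reversed TNFRSF11B (-0.018 to 0.27), TNFRSF12A (-0.25 to 0.057), TNFRSF17 (-0.31 to 0.18), TNFSF13B (-0.25 to 0.10), TNFSF15 (-0.042 to 0.22) and TNFSF18 (-0.061 to 0.19). The pseudocount, the filters, the variance model without a trend, the batch block and the replicate block reversed none. With the common floor, which all its samples lay under, TNFSF15 had equal values throughout and thus no difference to compare. TNFSF15, TNFSF4, TNFRSF8, TNFRSF13B and other members with a mean under 50 had no value with the higher filter. Depth limits these low members most.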

Other observations

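In the RefSeq gene order some family genes lie next to each other. TNFRSF18 and TNFRSF4 are neighbors and both were past BH toward late CCH (-1.24 and -2.13). TNF lies between LTA and LTB, of which LTB was past BH (-1.62), whereas TNF (-0.52) and LTA (-1.68) were not. LTA was at 1.06 normalized counts, a single count, in early 1. CD27 (-2.53) lies next to LTBR (0.34), and TNFSF12 (0.46) next to TNFSF13 (-0.49), so that fold changes of neighbors also had opposite signs. The difference between neighbors was not tested.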
